A study of Mus musculus with 9 samples.

Results

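The mitotic kinases Aurka, Aurkb and Plk1, the cyclin Ccna2, the mitotic activator Cdc20, the checkpoint kinases Bub1 and Bub1b, the chromosome enzyme Top2a and the proliferation marker Mki67 were read in mouse cumulus cells, which are granulosa cells attached to the oocyte. They were chosen by name as genes of G2 and mitosis, with earlier results of these data known. All probe sets annotated to them were taken, 19 of the 45101 on the array. Of the 10 genes on the list, 9 had a probe set; the cyclin Ccnb1 was not analysed here. After probe sets at background level were set aside, all 9 genes and 17 of the 19 probe sets were tested, and each of the 17 was above the filter on all 9 arrays.

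Cumulus cells came from DM females (Bmp15-/-Gdf9+/-, without BMP15 and with 1 intact Gdf9 allele), from Bmp15-/- females and from wildtype females, with 3 arrays for each genotype. All females were 4 to 5 months old, on a B6/129 background, and had received 5 IU of equine chorionic gonadotropin 48 hours earlier to drive follicle growth. Each array held cumulus cells of 75 to 100 cumulus-oocyte complexes pooled from 3 to 4 mice and stripped from large antral follicles in medium with 5 µM milrinone, which holds the oocyte in meiotic arrest. DM differs from wildtype at both genes, and females with the Gdf9+/- genotype and intact Bmp15 were not analysed here. BMP15 and GDF9 are growth factors that the oocyte secretes and that act on the granulosa cells around it.

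A cell enters mitosis when cyclin-dependent kinase 1 becomes active with its cyclins, and polo-like and aurora kinases then build the spindle and condense and align the chromosomes. The spindle checkpoint holds back the anaphase-promoting complex until every kinetochore is attached. Many transcripts of this machinery are made in G2 phase, so their level in a tissue is widely read as a sign of how many of its cells divide. The fully grown oocyte stores several of the same transcripts although it does not divide by mitosis. In a sample of many cells, fewer dividing cells and less of a transcript per cell cannot be told apart.

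Many G2 and mitosis promoters carry CCAAT boxes, which bind the factor NF-Y, and CHR elements, where the MuvB complex binds. Promoters of 8 of the 10 genes were in the RefSeq table used here (GRCm38.p6). The 250 bases before each start were searched on both strands for CCAAT, for the CHR letters TTTGAA or TTCGAA and for the E2F cores TTCCCGC or TTGGCGC. The last 120 bases before the start of 6 measured genes are shown as examples with and without CHR letters. Bub1b, also measured, is not printed, and no link of motifs to the change in DM was tested. Bases run 5′ to 3′ on the strand of the gene, with CCAAT and CHR letters of either strand in capitals.
Aurka, chr2:172370571-172370690, minus strand: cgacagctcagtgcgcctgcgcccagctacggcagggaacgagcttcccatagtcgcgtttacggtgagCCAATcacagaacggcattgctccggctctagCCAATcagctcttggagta
Plk1, chr7:122159315-122159434, plus strand: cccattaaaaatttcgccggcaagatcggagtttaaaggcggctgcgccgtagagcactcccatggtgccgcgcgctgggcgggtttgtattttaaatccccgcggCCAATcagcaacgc
Cdc20, chr4:118437344-118437463, minus strand: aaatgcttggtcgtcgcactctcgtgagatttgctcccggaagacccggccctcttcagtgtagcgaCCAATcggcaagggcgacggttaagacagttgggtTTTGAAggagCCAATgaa
Bub1, chr2:127831860-127831979, minus strand: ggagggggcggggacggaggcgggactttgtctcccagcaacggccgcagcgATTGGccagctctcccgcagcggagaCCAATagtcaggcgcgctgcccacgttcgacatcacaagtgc
Top2a, chr11:99024190-99024309, minus strand: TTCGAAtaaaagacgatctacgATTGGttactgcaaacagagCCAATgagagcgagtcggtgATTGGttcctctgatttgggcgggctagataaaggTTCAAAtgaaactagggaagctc
Mki67, chr7:135716380-135716499, minus strand: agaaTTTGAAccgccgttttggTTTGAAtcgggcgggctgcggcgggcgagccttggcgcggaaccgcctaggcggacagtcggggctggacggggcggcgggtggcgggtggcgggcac
CCAAT was present in all 8 promoters, against 33.8% of the 32851 promoters in the table. CHR letters were present in 4 of 8, those of Bub1b, Cdc20, Mki67 and Top2a, against 17.1% of all promoters, and an E2F core in 2 of 8, against 5.62%. The E2F core of the unmeasured Ccnb1 overlapped a CCAAT box. The Cdc20 promoter held TTTGAA 18 bases before the start, between CCAAT boxes 53 and 8 bases before it. The Bub1, Aurka and Plk1 promoters held CCAAT and neither CHR sequence in these windows. The Aurka window lies inside the gene as annotated (chr2:172356190-172370886), and those of Mki67, Top2a and Bub1b lie partly inside their genes, so other starts were not searched. These matches describe letters only.

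All 9 genes were lower in DM than in wildtype cumulus cells, by 1.55-fold for Cdc20 to 2.15-fold for Bub1. Of all 13447 genes tested, 18.2% were called lower in this comparison. A gene was called at an adjusted p under 0.05 from limma, with Benjamini-Hochberg adjustment over all genes tested. The 3 DM arrays of each of the 9 genes lay below its 3 wildtype arrays, a pattern that 27.4% of all genes showed, and 58.5% of all genes had a change below 0. The median change of the 9 was -0.82 (log2), beside -0.06 for all genes tested. After quantile normalization 1858 genes were lower and 1738 higher, against 2442 and 1338 with the deposited values, and the median of the 9 genes was then -0.71. In a fit of the 6 arrays compared, all 9 genes were again called lower, where 15.4% of all genes were, and likewise with array weights, where 20.4% were.

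**Figure D1:**
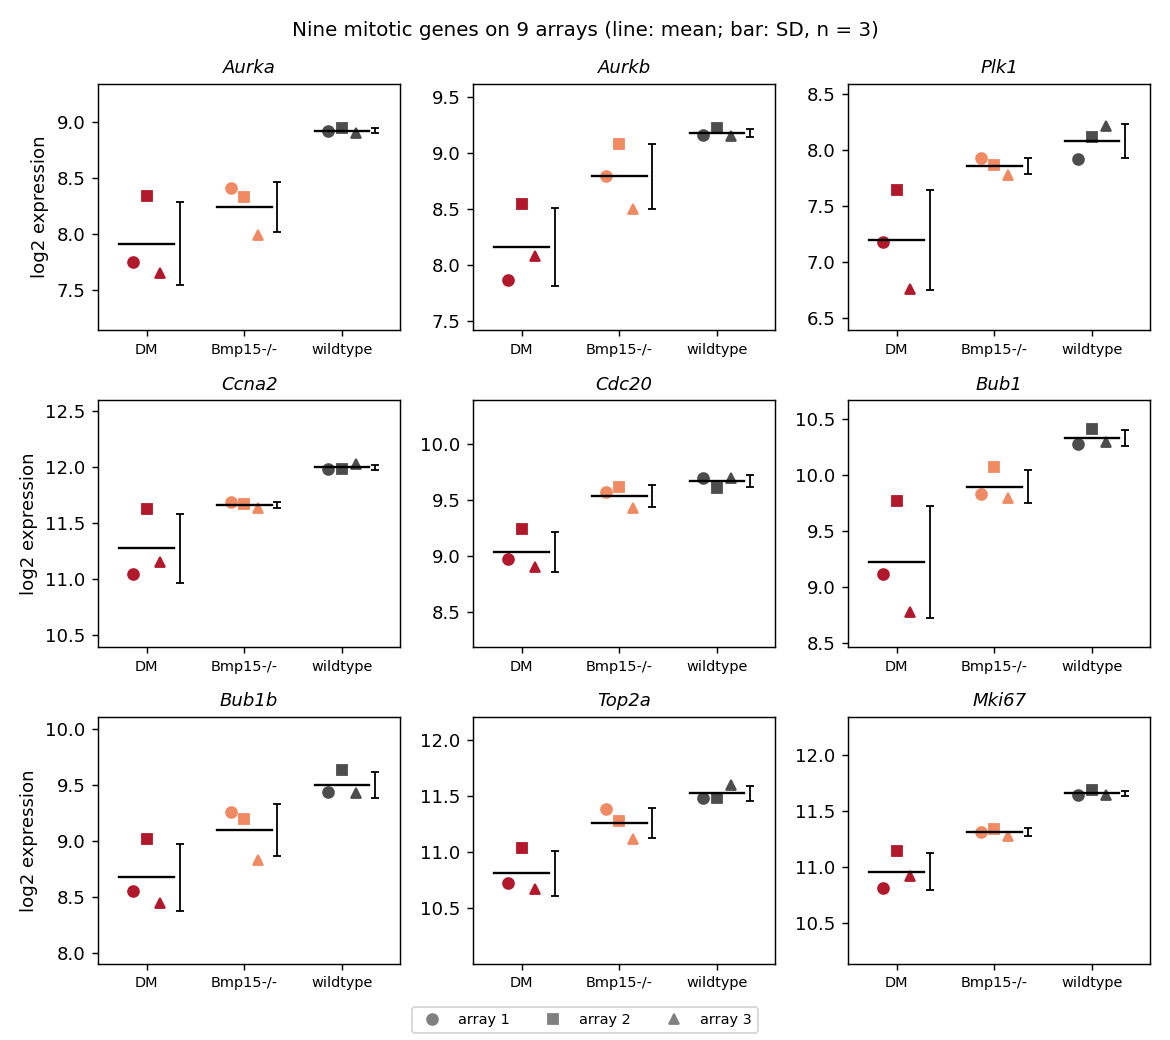
Log2 expression of the 9 genes (vertical axes, each spanning the same range of log2 units) on the 3 arrays of DM, Bmp15-/- and wildtype; each gene is shown by its brightest probe set, the marker shape gives the array number, the line the mean and the bar the SD. The DM arrays of every gene lie below its wildtype arrays, and DM array 2 is the highest of the 3 DM arrays for all 9 genes.

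Each gene's values are log2 expression on arrays 1, 2 and 3 of each genotype, in the probe set with the highest mean for the gene. Aurka, the aurora kinase of centrosomes and spindle poles, had 7.75, 8.34 and 7.65 in DM, 8.41, 8.33 and 7.99 in Bmp15-/- and 8.92, 8.94 and 8.90 in wildtype. All 6 mutant arrays lay below the wildtype arrays, while DM and Bmp15-/- overlapped because DM array 2 was higher than Bmp15-/- arrays 2 and 3. Aurka fell 2.00-fold in DM (adjusted p = 0.0033 with limma) and 1.60-fold in Bmp15-/- (adjusted p = 0.0459 with limma).

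Aurkb, the kinase of the chromosomal passenger complex that corrects wrong kinetochore attachments, had 7.86, 8.54 and 8.08 in DM, 8.79, 9.08 and 8.50 in Bmp15-/- and 9.16, 9.22 and 9.15 in wildtype. Wildtype stood above both mutants without overlap, and the mutants overlapped in one pair of arrays, DM array 2 and Bmp15-/- array 3. Aurkb fell 2.03-fold in DM (adjusted p = 0.00356 with limma), and its change in Bmp15-/- was -0.39 ± 0.18 (log2, SE; adjusted p = 0.216 with limma). A further Aurkb probe set had 6.84, 8.05 and 7.26 in DM, 7.57, 8.49 and 7.88 in Bmp15-/- and 8.42, 8.50 and 8.50 in wildtype. It repeated the order of the DM arrays, and its second Bmp15-/- array reached the wildtype level.

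Plk1, the polo-like kinase that acts from mitotic entry to cytokinesis, had 7.18, 7.65 and 6.76 in DM, 7.93, 7.87 and 7.78 in Bmp15-/- and 7.92, 8.12 and 8.22 in wildtype. Here Bmp15-/- overlapped wildtype, and DM lay below both. Plk1 fell 1.86-fold in DM against wildtype (adjusted p = 0.00802 with limma). In Bmp15-/- its change was -0.23, with a 95% interval of -0.65 to 0.20, which includes the Bmp15-/- change of each other gene except Aurka.

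Ccna2, the cyclin that works in S phase and G2, had 11.04, 11.62 and 11.15 in DM, 11.68, 11.67 and 11.63 in Bmp15-/- and 11.98, 11.98 and 12.02 in wildtype. The 3 genotypes did not overlap, although DM array 2 came close to Bmp15-/- array 3. Ccna2 fell 1.65-fold in DM (adjusted p = 0.00418 with limma), and its change in Bmp15-/- was -0.34 ± 0.13 (log2, SE; adjusted p = 0.15 with limma). Its dimmer probe set had 8.98, 9.17 and 8.61 in DM, 9.64, 9.39 and 9.37 in Bmp15-/- and 9.82, 9.82 and 9.90 in wildtype, again without overlap.

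Cdc20, which activates the anaphase-promoting complex once the checkpoint is satisfied, had 8.97, 9.24 and 8.90 in DM, 9.57, 9.62 and 9.43 in Bmp15-/- and 9.70, 9.61 and 9.70 in wildtype. DM lay below the other genotypes, and Bmp15-/- array 2 reached into the wildtype range. It fell 1.55-fold in DM against wildtype (adjusted p = 0.00251 with limma). Against Bmp15-/-, Cdc20 in DM changed by -0.50 ± 0.11 (log2, SE; adjusted p = 0.0376 with limma). In Bmp15-/- against wildtype its change was -0.13, with a 95% interval of -0.36 to 0.11. The main Cdc20, Aurkb and Bub1b probe sets, and the further one of Aurkb, are of kinds whose probes may match other transcripts. The other 2 Cdc20 probe sets fell in DM as well, by 0.78 and 0.57 on the log2 scale. The one with 0.57, 1439394_x_at, is also of such a kind.

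Bub1 and Bub1b encode the checkpoint kinase BUB1 and its relative BUBR1, which gather at unattached kinetochores. Bub1 had 9.12, 9.77 and 8.78 in DM, 9.83, 10.07 and 9.79 in Bmp15-/- and 10.28, 10.41 and 10.29 in wildtype. The genotypes did not overlap, with DM lowest. Bub1 fell 2.15-fold in DM (adjusted p = 0.00461 with limma), and its change in Bmp15-/- was -0.43 ± 0.21 (log2, SE; adjusted p = 0.23 with limma).

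Bub1b had 8.56, 9.02 and 8.45 in DM, 9.26, 9.20 and 8.83 in Bmp15-/- and 9.44, 9.64 and 9.43 in wildtype. Both mutants lay below wildtype and overlapped each other. It fell 1.77-fold in DM (adjusted p = 0.00619 with limma), with a change of -0.40 ± 0.17 in Bmp15-/- (log2, SE; adjusted p = 0.16 with limma). A second Bub1b probe set fell by 0.80 on the log2 scale in DM.

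Top2a, the topoisomerase that untangles sister chromatids, had 10.73, 11.04 and 10.67 in DM, 11.39, 11.28 and 11.12 in Bmp15-/- and 11.49, 11.49 and 11.60 in wildtype. Every genotype kept to its own range, in the order DM, Bmp15-/-, wildtype. It fell 1.64-fold in DM (adjusted p = 0.00212 with limma), and its change in Bmp15-/- was -0.26 ± 0.12 (log2, SE; adjusted p = 0.186 with limma).

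Mki67, which encodes the chromosome coat protein Ki-67 used to stain dividing cells, had 10.81, 11.14 and 10.92 in DM, 11.31, 11.34 and 11.27 in Bmp15-/- and 11.64, 11.68 and 11.64 in wildtype. The 3 genotypes were separated, and arrays of Bmp15-/- and of wildtype were close together, with SDs of 0.03 and 0.02. It fell 1.62-fold in DM (adjusted p = 0.000895 with limma). In Bmp15-/- the change of -0.34 ± 0.09 (log2, SE) had an adjusted p of 0.0531 with limma.

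In Bmp15-/- against wildtype 1 of the 9 genes, Aurka, was called lower, where 5.78% of all genes tested were called lower, so the count of calls by itself is close to the background. The other 8 had changes between -0.43 and -0.13, and 5 of the 9 had an unadjusted p under 0.05. So did 3553 of all 13447 genes tested, in either direction. In 7 of the 9 genes the 3 Bmp15-/- arrays lay below the 3 wildtype arrays, against 23.4% of all genes; the exceptions were Plk1 and Cdc20. All 9 changes were negative, as were those of 56.4% of all genes. The median change of the 9 was -0.34 (log2), beside -0.04 for all genes tested. The call of Aurka rests on single arrays: it was lost without any 1 of the wildtype or Bmp15-/- arrays or without DM array 1, with adjusted p up to 0.154 in limma. It was also lost in limma after quantile normalization, at adjusted p = 0.0589, where 520 genes were lower and 590 higher against 777 and 442 with the deposited values. With array weights 3 of the 9 genes were called lower, where 11.6% of all genes were, and in a fit of the 6 arrays compared 4 were, where 9.59% of all genes were.

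**Figure D2:**
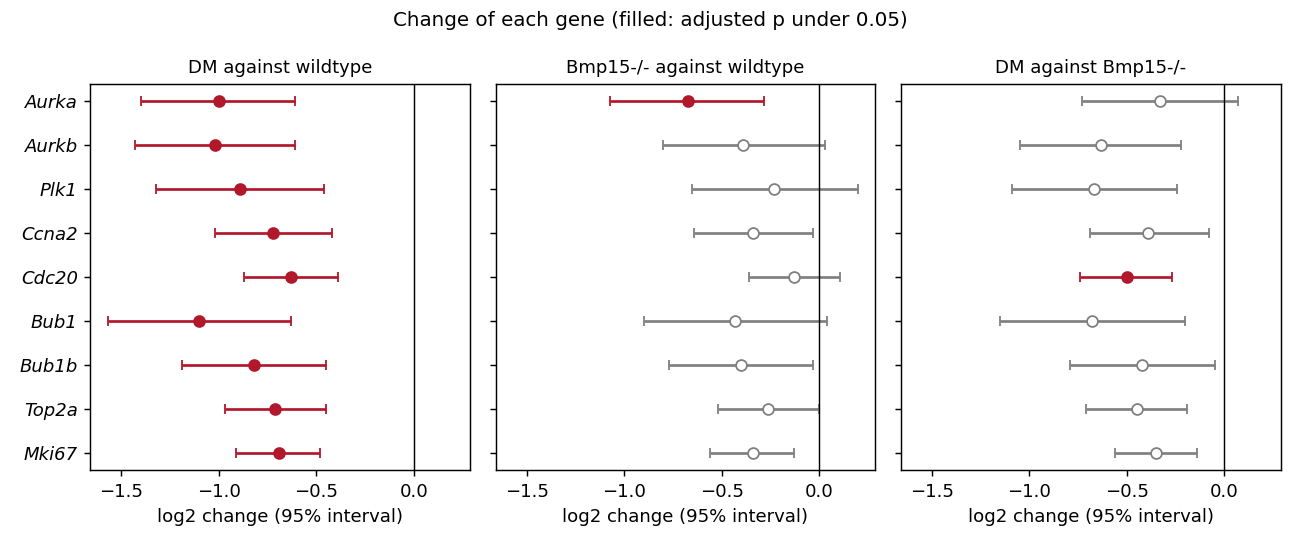
Change of each of the 9 genes (log2, horizontal axis) with its 95% interval from limma for DM against wildtype, Bmp15-/- against wildtype and DM against Bmp15-/-; filled points were called at an adjusted p under 0.05. All 9 genes are filled for DM against wildtype, Aurka for Bmp15-/- against wildtype and Cdc20 for DM against Bmp15-/-.

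The direct comparison of DM with Bmp15-/- asked what the loss of 1 Gdf9 allele adds when BMP15 is missing. Cdc20 was the 1 gene of 9 called lower, where 1.61% of all genes tested were called lower. All 9 changes were negative, from -0.68 for Bub1 to -0.33 for Aurka, as were those of 57.4% of all genes. In 6 of the 9 genes the DM arrays lay below the Bmp15-/- arrays, against 12.5% of all genes; Aurka, Aurkb and Bub1b overlapped. The median was -0.45 (log2), beside -0.03 for all genes. With array weights 4 of the 9 genes were called, where 2.16% of all genes were, and in a fit of the 6 arrays compared 0 were, where 0.402% were. These comparisons share the Bmp15-/- or wildtype arrays, so their values are not independent of each other. The group means of each of the 9 genes were ordered DM, Bmp15-/-, wildtype from low to high, an order that 4568 of the 13447 genes had.

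DM array 2 stood apart from the other 2 DM arrays in these genes. Its level was the highest of the 3 DM arrays in 9 of 9 genes, and the median of the 9 genes relative to the wildtype mean was -0.94, -0.49 and -1.05 on DM arrays 1 to 3. For Bmp15-/- the same median was -0.32, -0.26 and -0.40, with array 3 the lowest in 9 of 9 genes, and for wildtype it was -0.02, 0.03 and -0.01. DM array 2 was singled out by these same values, so leaving it out lowers the DM mean of each gene by construction. Without DM array 2, limma called all 9 genes lower in DM against Bmp15-/-, at adjusted p between 0.00659 and 0.0447, where 4.49% of all genes were called lower. All 9 were also called lower in DM against wildtype, where 20.8% of all genes were. In Bmp15-/- against wildtype 4 genes were called when DM array 2 was left out, namely Aurka, Bub1, Ccna2 and Mki67, where 8.31% of all genes were called lower. That comparison holds no DM array, so its changes stayed the same and only the shared estimate of the spread differed. The call of Cdc20 in DM against Bmp15-/- was lost when any of the other 8 arrays was left out, with adjusted p between 0.053 and 0.135 in limma. DM array 2 also had the largest 3′ minus 5′ difference in the beta-actin control, 2.12 against 1.85 to 1.92 on the other 8 arrays (log2), and its part in the result was not tested.

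All 9 genes were read again with every probe set tested, fitted together with the 23735 probe sets that passed the same filter. In DM against wildtype 15 of the 17 member probe sets were called lower, where 18.1% of all probe sets were, and the same number had groups without overlap, against 28.5% of all probe sets. The exceptions were the dimmest tested probe sets of Bub1b, with a change of 0.10 ± 0.13 (log2, SE), and of Top2a, with -0.17 ± 0.13. The Top2a one had the same value, 5.65, on the 3 DM arrays. Another 2 probe sets, of Aurka and Top2a, were above the 40th percentile of their array on 0 of 9 arrays and were not tested.

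In DM against Bmp15-/- 1 of the 17, the brightest of Cdc20, was called lower, where 1.2% of all probe sets were, and 8 of 17 did not overlap, against 12.5%. In Bmp15-/- against wildtype 12 of 17 did not overlap, against 23.4% of all probe sets. There 1 of the 17 was called lower, where 5.24% of all probe sets were, and it was a second one of Bub1 rather than that of Aurka, whose adjusted p over probe sets was 0.0522 with limma. This Bub1 probe set, 1438571_at, had 6.88, 7.71 and 6.90 in DM, 6.00, 7.12 and 6.45 in Bmp15-/- and 7.92, 8.27 and 8.11 in wildtype. Bmp15-/- was thus the lowest genotype on it by mean, whereas DM was the lowest on the brighter Bub1 probe set. It fell 2.98-fold in Bmp15-/- (adjusted p = 0.0158 with limma) and 1.91-fold in DM (adjusted p = 0.0426 with limma). Its change between DM and Bmp15-/- was 0.64 ± 0.29 (log2, SE; adjusted p = 0.276 with limma), against -0.68 ± 0.21 on the brighter one, so the size of the Bub1 change in Bmp15-/- depends on the probe set.

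**Figure D3:**
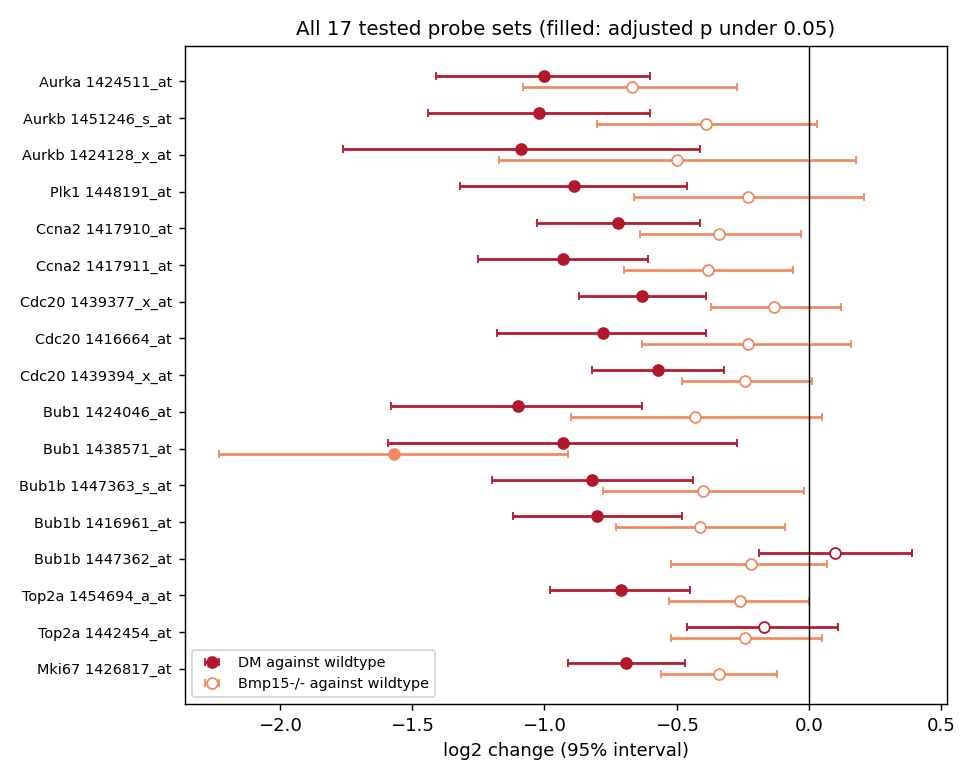
Change of the 17 tested probe sets of the 9 genes (log2, horizontal axis, with the 95% interval from limma) in DM against wildtype and Bmp15-/- against wildtype; filled points were called at an adjusted p under 0.05. In DM 15 of 17 points are filled, and in Bmp15-/- the filled point is the Bub1 probe set 1438571_at.

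The targeted genes are known as oocyte transcripts, and the samples were of cumulus cells. Bmp15 had 5.05, 5.09 and 5.08 in DM, 5.10, 5.08 and 5.10 in Bmp15-/- and 5.10, 9.58 and 8.41 in wildtype (log2). It was high on wildtype arrays 2 and 3, while wildtype array 1 was at the level of the mutants and so checks no label. Whether the probes of Bmp15 and Gdf9 lie in the deleted parts was not tested.

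Oocyte transcripts differed between arrays and were set beside the 9 genes, since oocytes store several of them. The median of 16 oocyte markers was 5.02, 5.40 and 5.49 on DM arrays 1 to 3, 5.50, 6.14 and 5.15 in Bmp15-/- and 5.23, 6.48 and 5.88 in wildtype (log2). The median change of the 16 markers in DM against wildtype was -0.45 (log2), in the direction of the 9 genes. Zp3, a protein of the egg coat, ran from 4.57 to 5.34 in DM, from 4.87 to 5.59 in Bmp15-/- and from 4.86 to 8.11 in wildtype. Within wildtype the SD of Zp3 was 1.63 and those of the 9 genes were between 0.02 and 0.15, and array 2, with the highest oocyte median, was the highest of the 3 in 5 of 9 genes. Within Bmp15-/- array 3 had the lowest oocyte median and was the lowest array in 9 of 9 genes. Within DM array 3 had the highest oocyte median and was the lowest array in 6 of 9 genes. The other oocyte markers that differed by over 2 log2 units between arrays of 1 genotype were Gdf9, Bmp15, Oosp1, Ooep and Btg4. With limma 1 of the 16 markers, Tle6, named here after its value was seen, was called lower in each mutant against wildtype.

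The oocyte markers include the targeted genes Bmp15 and Gdf9, and mean Bmp15 was 5.07 in DM, 5.09 in Bmp15-/- and 7.7 in wildtype (log2). The marker median is thus not independent of genotype and cannot separate its effect from that of oocyte transcripts. The part of oocyte transcripts in the results was not tested. With the oocyte marker median of each array as a covariate in limma, all 9 genes were called lower in DM against wildtype, where 12.1% of all genes were. In Bmp15-/- against wildtype 0 were called, where 3.86% of all genes were, with Aurka at a change of -0.64 and adjusted p = 0.0848 in limma. In DM against Bmp15-/- 0 were called, where 0.766% of all genes were, with Cdc20 at a change of -0.49 and adjusted p = 0.0768 in limma. Over all alternatives the Cdc20 change in this comparison lay between -0.60 and -0.44. The counts of 0 in these and the other alternatives stood beside 2 to 5 genes with an unadjusted p under 0.05 in Bmp15-/- and 5 to 9 in DM against Bmp15-/-. In the main fit 3553 and 2670 of all 13447 genes had such a p in these comparisons, in either direction. Without the second wildtype and second Bmp15-/- arrays, which had the highest oocyte medians of their genotypes, all 9 genes were called lower in DM against wildtype, where 10.3% of all genes were. In that fit 0 were called in Bmp15-/- against wildtype, where 0.736% of all genes were, and 0 in DM against Bmp15-/-, where 0.0595% were.

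**Figure D4:**
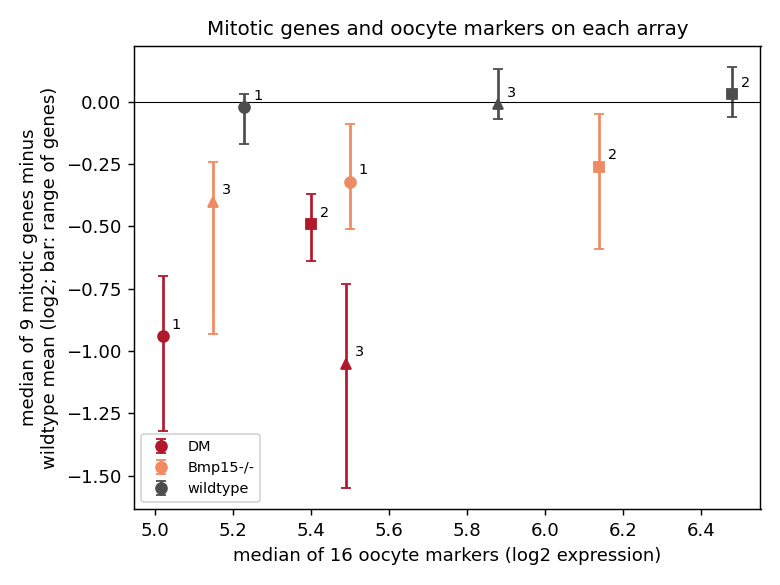
Median of the 9 mitotic genes relative to their wildtype means (vertical axis, log2, with the range over the 9 genes as bars) against the median of 16 oocyte markers (horizontal axis, log2 expression) on each of the 9 arrays, numbered within the genotype. The 3 wildtype arrays span oocyte medians of 5.23 to 6.48 and lie between -0.02 and 0.03 on the vertical axis. The 3 DM arrays lie between -1.05 and -0.49, and in Bmp15-/- array 3 is the lowest on both axes (5.15 and -0.40) and array 2 the highest on both (6.14 and -0.26).

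Markers of other cells and of RNA quality were read as well. All 7 cumulus and granulosa markers with a probe set passed the filter, with mean levels of 10.33 to 10.65 in DM, 10.47 to 10.59 in Bmp15-/- and 10.56 to 10.61 in wildtype. These means average over markers that moved in opposite directions: in DM against wildtype Foxl2 and Inhbb were called lower with limma, at -0.78 and -0.75 (log2), and Slc38a3 and Nr5a2 higher, at 1.24 and 0.36. The mean of 3 theca and stroma markers was 6.49 to 6.84 in DM, 6.30 to 6.50 in Bmp15-/- and 5.83 to 6.23 in wildtype, with 2 further markers dim. This mean was higher on every mutant array than on any wildtype array, with Pdgfra at a change of 1.57 in DM and 0.92 in Bmp15-/- (log2). Col3a1 overlapped wildtype in both mutants, at 0.05 and 0.09, and Col1a1 overlapped it in Bmp15-/-. Of 2 mural and luteal markers the mean was 6.21 to 6.46 in DM, 6.31 to 6.48 in Bmp15-/- and 5.73 to 6.20 in wildtype. Of 4 endothelial and of 4 immune markers, 3 and 2 were dim. Between the 3′ and 5′ Gapdh probe sets, the difference was 0.79 to 0.95 in DM, 0.66 to 0.73 in Bmp15-/- and 0.52 to 0.59 in wildtype (log2), so it followed the same order of genotypes as the 9 genes. The part of these measures in the results was not tested.

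The wider machinery was read in 8 lists of cell cycle genes other than the 9, also chosen with earlier results of these data known. In DM against wildtype 84 of their 125 tested genes were lower, 0 were higher and 41 were not called with limma. Of all genes tested, 18.2% were lower and 9.95% higher. The list medians were between -0.72 and -0.35 (log2) in 7 lists and 0.08 among the paralogs, beside -0.06 for all genes. In Bmp15-/- 14 of 125 were lower, where 5.78% of all genes were, and 0 were higher, where 3.29% were. The median there was -0.24 beside -0.04 for all genes. In DM against Bmp15-/- 12 were lower, where 1.61% of all genes were, and 0 were higher, where 1.64% were. The median there was -0.33 beside -0.03. At an unadjusted p under 0.05, 2 genes were higher in DM, 2 in Bmp15-/- and 3 in DM against Bmp15-/-. Of all 13447 genes tested, 5388, 3553 and 2670 had such a p in these comparisons, in either direction. Without DM array 2 the genes called were 92 in DM, 29 in Bmp15-/- and 52 in DM against Bmp15-/-, where 20.8%, 8.31% and 4.49% of all genes were called lower in these comparisons. DM array 2 was singled out by its level in the 9 genes.

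Of the 11 genes of the CDK1 switch, which times mitotic entry, 9 fell in DM. In this and the other lists a gene counted as fallen was called lower, as 18.2% of all genes tested were. They included the G2 protein Gtse1, with 6.19, 6.34 and 5.83 in DM, 6.44, 6.33 and 6.24 in Bmp15-/- and 6.98, 7.10 and 7.26 in wildtype. Cyclin F (Ccnf) fell by 1.11, the phosphatase Cdc25a by 0.56 and the CDK-binding Cks2 by 0.58 on the log2 scale in DM. Of 17 checkpoint and kinetochore genes 16 fell and Mad1l1, the remaining one, had a change of -0.23. The checkpoint protein Mad2l1 fell by 0.82, the kinetochore proteins Nuf2 and Knl1 by 1.20 and 1.01, and the centromeric histone Cenpa by 1.32.

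Among 23 spindle and cytokinesis genes 19 fell in DM, where 18.2% of all genes tested were called lower. The spindle midzone protein Prc1 had 11.44, 11.64 and 11.37 in DM, 11.96, 11.97 and 11.86 in Bmp15-/- and 12.51, 12.35 and 12.48 in wildtype. Its genotypes did not overlap, and Prc1 was called lower in each of the 3 comparisons. The kinesins Kif20a and Kif20b fell by 0.82 and 0.78 and the cytokinesis regulator Racgap1 by 0.70 in DM (log2).

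Of 18 genes of the anaphase-promoting complex and its regulators 8 fell in DM and 10 were not called. Of all genes tested, 18.2% were called lower. The inhibitor Fbxo5, also known as EMI1, fell by 1.25, the ubiquitin-conjugating enzyme Ube2c by 0.75 and the subunits Anapc10 and Anapc1 by 0.70 and 0.62 (log2). Of the subunits that were not called, 5 had changes between 0.04 and 0.10, among them Cdc16 (0.07) and Cdc27 (0.08), and Anapc2, Anapc13 and Cdc23 had -0.21, -0.38 and -0.11. Of 13 condensin and cohesin genes 7 fell, with Ncapg2 of condensin II at -1.40, Smc2, shared by both condensins, at -0.83, Ncaph2 at -0.69 and Ncapd3 at -0.49. The condensin subunits Smc4 and Ncaph were not called, each at -0.30. Of the 5 cohesin subunits in the list Smc3 fell by 0.47, and Smc1a, Stag1, Rad21 and Stag2 were not called, at -0.29, -0.22, 0.01 and 0.06.

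Of 18 transcription regulators of these genes 9 fell in DM, where 18.2% of all genes tested were called lower. Foxm1, the forkhead factor of G2 genes, had 6.67, 7.09 and 6.84 in DM, 7.26, 7.35 and 7.21 in Bmp15-/- and 7.54, 7.61 and 7.79 in wildtype. It fell by 0.78, the MuvB subunit Lin54 by 1.07, and the pocket proteins Rb1 and Rbl1 by 0.97 and 0.67 (log2). The MuvB subunits Lin9, Lin37 and Lin52 were not called, at -0.14, 0.05 and -0.10.

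Among 5 tested paralogs of the members 1 fell in DM, the centriole kinase Plk4, by 0.89. That count is close to the 18.2% of all genes called lower. Aurkc and Ccna1, known from meiotic cells, were not called, at 0.30 and -0.11, and neither were Plk2 (0.08) and Top2b (0.15). In the list of 20 S phase genes 15 fell, with the origin factors Orc6 and Cdc6 at -1.01 and -1.50, the GINS subunit Gins1 at -0.89 and the reductase subunit Rrm1 at -0.77 (log2).

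**Figure D5:**
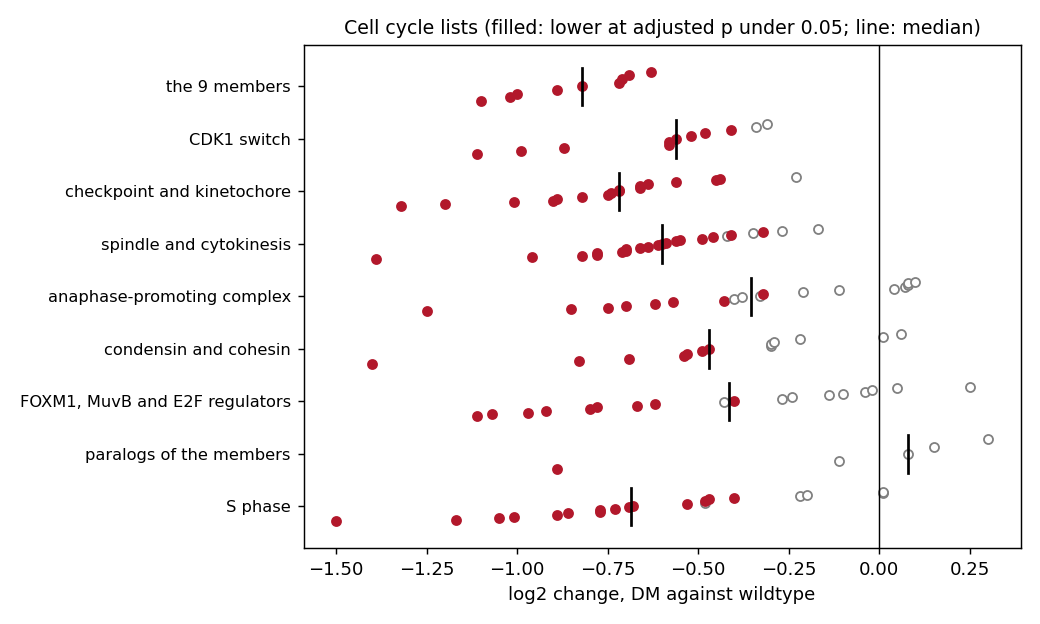
Change in DM against wildtype (log2, horizontal axis) of the 9 genes and of the tested genes of 8 cell cycle lists, 1 point a gene; filled points were called lower at an adjusted p under 0.05 and the line is the median of each row. All 9 points of the first row are filled, and the row of paralogs has its median at 0.08.

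Over the 9 arrays each of the 9 genes followed the mean of the other 8 at Pearson r between 0.942 and 0.982, a description of arrays that share their genotypes. The genes outside the 9 whose pattern was most like their mean over these arrays were Ndc1, Loxl1, Lsm8, Larp7 and Ndufaf3, at r between 0.993 and 0.997.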

How the data were processed

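The authors deposited log2 expression per probe set on 9 arrays. The submitters' processing notes name RMA and the affy package, with no version or settings in the sources read here. RMA compresses the changes of dim transcripts. Values ran from 2.87 to 14.53, and the number of arrays limits the precision. Each array started from 10 ng of total RNA amplified in 2 rounds, per the labels' protocols, which favours 3′ ends.

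Names came from the platform annotation, and RefSeq GRCm38.p6 gave current symbols. Of the probe sets 34958 had 1 gene, 932 several and 9211 none. The brightest probe set by mean stood for each gene, which was tested if at least 3 of 9 arrays exceeded the 40th percentile of their array (13447 of 18194 genes). All 9 arrays entered 1 fit with genotype as the term in limma 3.58.1 (R 4.3.3, with data.table in version 1.17.8 and matplotlib 3.10.9). Calls are 2-sided, at a Benjamini-Hochberg adjusted p under 0.05. The fit was run on simulated data with independent noise and few changed genes, a setting unlike these data, so it checks the code only.

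The members and lists were chosen with earlier results of these data known. Named genes are all members, up to 4 called genes per list and direction with the smallest p in DM against wildtype, oocyte markers with a wide range, and the 5 genes most like the members. Other list genes given with values were chosen after their values were seen. Alternatives covered the dim filter, probe set, normalization, a floor, the model, a replicate block, an oocyte covariate and leaving out arrays.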

Additional observations from a re-analysis of the deposited data

How the results depend on the processing

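In DM against wildtype all 9 genes were called lower under every alternative run, with changes between -1.38 and -0.44 (log2). Among all genes, 2388 of 18194 were lower with no dim filter, 2410 of 10145 with the filter at the 60th percentile and 2228 of 13447 with centred arrays. Counts given here are of genes or probe sets called with limma. Of 9 genes in Bmp15-/- against wildtype, 0 were called with no dim filter, after quantile normalization, with arrays centred on their medians, with the oocyte covariate and without the second wildtype and Bmp15-/- arrays together. There were 2 with the filter at the 60th percentile, with the most variable probe set and with an intensity trend. With the mean of probe sets and with array weights there were 3, and in a fit of the 6 arrays compared 4. Called lower among all genes were 856 of 10145 with that filter, 914 of 12430 with the most variable probe set and 920 of 13454 with the mean. With no dim filter 705 of 18194 were, after quantile normalization 520 of 13447 and with centred arrays 671 of 13447. With weights 11.6% of all genes were, and with the 6 arrays 9.59%. The share of all genes with the trend is not given here. In DM against Bmp15-/-, 0 were called with the mean of probe sets, the most variable one, centred arrays, the 6 arrays, the replicate block, the oocyte covariate and without the 2 second arrays. In the same comparison 3 were called with the trend and 4 with weights. Among all genes 237 of 13454 were lower with the mean of probe sets, 202 of 12430 with the most variable one and 2.16% with weights. With centred arrays 172 of 13447 were, and with the 6 arrays 0.402%. The shares with the trend and with the block are not given here. With the most variable probe set the change of Bub1 in DM against Bmp15-/- was 0.64, which is that of its second probe set.

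Of 17 probe sets in Bmp15-/-, 2 were called with the filter at the 60th percentile and with the replicate block, 3 with the trend, 5 with weights and with the 6 arrays, and 0 without the 2 second arrays. In DM against Bmp15-/- 3 were called with the trend, and 0 with no filter, centred arrays, the 6 arrays, the block, the covariate and without the 2 second arrays. These counts of 0 stood beside 3 to 4 probe sets with an unadjusted p under 0.05 in Bmp15-/- and 8 to 15 in DM against Bmp15-/-. The main fit called 5.24% of all probe sets lower in Bmp15-/- and 1.2% in DM against Bmp15-/-. Shares of all probe sets under each alternative, and at an unadjusted p, were not counted, so the counts above lack a background of their own. Among genes, the share called lower in Bmp15-/- was 5.78% in the main fit, 11.6% with weights and 9.59% with the 6 arrays.

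Over all genes, 2350 were called in Bmp15-/- with weights, 1894 with the 6 arrays and 166 without the 2 second arrays. In DM against wildtype 2211 were called without the 2 second arrays. In DM against Bmp15-/- 117 were called with the 6 arrays, 233 with the covariate and 11 without the 2 second arrays. Of the 125 list genes, alternatives chosen after seeing the data called 9 in Bmp15-/- after quantile normalization and 9 with the covariate, and 2 in DM against Bmp15-/- with the covariate. Of all genes, 520 of 13447 were lower in the first of these, 3.86% in the second and 0.766% in the third. Without the 2 second arrays 0 were called in either, where 0.736% and 0.0595% of all genes were called lower. These counts of 0 stood beside 28 and 48 list genes with an unadjusted p under 0.05. In the main fit 3553 and 2670 of all 13447 genes had such a p.

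With each array left out in turn, the 9 genes gave 0 to 4 calls in Bmp15-/-, 9 in DM and 0 to 9 in DM against Bmp15-/-. Their probe sets gave 0 to 4, 13 to 15 and 0 to 11, all genes 445 to 1663, 2648 to 4157 and 105 to 922, and the list genes 4 to 29, 72 to 92 and 1 to 52. The causes were not tested.

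Pairing of the arrays by the replicate numbers in their titles was not shown, and none was used in the main fit. Deviations of same-numbered arrays correlated between -0.08 and 0.26, and those of other pairs between -0.20 and 0.17. With the replicate block the 9 genes gave 1 call in Bmp15-/-, 9 in DM and 0 in DM against Bmp15-/-. The shares of all genes called with this block are not given here, so these counts stand without a background.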
